A study of Rattus norvegicus with 18 samples.

Results

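The chemokine transcript *Ccl2* (ENSRNOT00000009448) and the scavenger receptor transcript *Ackr3* (ENSRNOT00000026558) were followed across 18 rats in RNA-seq of dorsal root ganglia (DRGs), the clusters of sensory neuron cell bodies that serve the limb. Both were chosen by name, as 2 of the 41078 transcripts counted, with earlier results of these data known. In these same rats the paper reports *Ccl2* as the only transcript raised in sham against naive rats, and *Ackr3* as raised after arthroplasty against sham. Their unadjusted p-values and ranks below, and the p-values of their ratio, adjusted or not, are therefore descriptions and no independent support. The Sprague Dawley rats, of about 300 g and of an age that the labels do not give, were 6 naive rats without any procedure, 6 sham rats, and 6 rats with total knee arthroplasty (TKA), each group with 3 labelled male and 3 labelled female. Sham rats had anesthesia and a skin incision that was sutured, and TKA rats had anesthesia and the whole knee replacement, with bone cutting and metal implants. Naive rats therefore also lacked the anesthesia of surgery, and sham rats lacked any opening of the joint. Per the methods, rats were under deep isoflurane when killed for DRG collection. DRGs of levels L3 and L4 were taken from the operated left side, 24 h after surgery in the sham and TKA rats, and each rat gave 1 library. Rats were separate animals, so the spread between them is biological as well as technical.

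CCL2 is a secreted chemokine that draws monocytes into tissue through the receptor CCR2. In DRGs it is known as a product of injured sensory neurons and of cells around them, and it can make neurons more excitable. ACKR3 is an atypical chemokine receptor that does not couple to G proteins. It binds CXCL12 and recruits beta-arrestin, and by taking its ligands into the cell it lowers their level outside, opioid peptides and adrenomedullin among them.

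Total counts per rat ranged from 20230562 to 29343899. Each level is in CPM, the edgeR unit of counts relative to library size, with sizes TMM-scaled over the 18 rats. Differences between groups are log2 fold-changes from edgeR's quasi-likelihood test, and calls needed both an adjusted p-value below 0.05 and a change of 1.5-fold or more. One library stood apart. TKA rat 2 was the lowest of the 18 rats by at least 2 log2 units in 563 of 16048 transcripts and the highest by that gap in 154, where the next rats reached 52 and 4. The differences between TKA rats and sham or naive rats are therefore given with and without rat 2. TKA rat 4, labelled female, had 3472 counts over 3 transcripts that had at least 3097 in male rats and at most 1 in other females. Over 3 further transcripts it had 0 counts, where other females had 426 to 955 and male rats at most 10. Its counts were those of a male rat in both sets, so results by sex rest on a label in doubt.

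*Ccl2* was lowest in naive rats, higher in sham rats, and highest in 5 of the 6 TKA rats. In naive rats it ran from 9.18 to 14.1 CPM (median 11.3, mean 11.4 ± 1.95, SD, n = 6). In sham rats it ran from 15.3 to 32.2 CPM (median 22.6, mean 22.6 ± 6.79, SD, n = 6). No sham rat overlapped with the naive rats, although sham rats 1 and 4, at 15.4 and 15.3 CPM, lay just above the highest naive rat. In TKA rats the lowest level was 0.509 CPM, in rat 2, the median was 41.1 CPM, and the highest level was 57.3 CPM, in rat 3 (mean 35.8 ± 19.4, SD, n = 6). The other 5 TKA rats lay between 30.3 and 57.3 CPM (mean 42.9 ± 9.81, SD, n = 5), and of these only rat 5 lay within the range of the sham rats. The level of rat 2 rested on 10 counts (exact Poisson 95% interval 4.80 to 18.4, which covers counting error only), where naive rats had 213 to 289 counts on this transcript and the 5 other TKA rats at least 785.

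**Figure D1:**
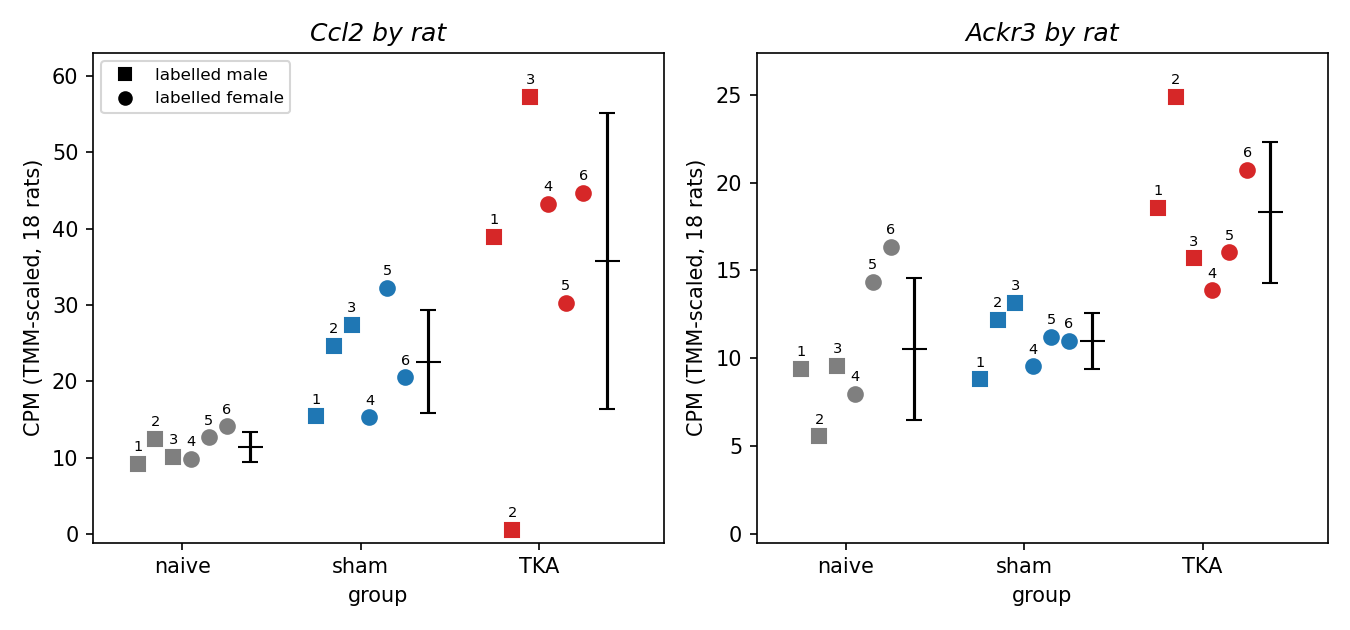
CPM (vertical axis) of *Ccl2* on the left and *Ackr3* on the right in each of the 18 rats by group, with squares for rats labelled male, circles for rats labelled female, and the rat's number beside each point. The horizontal mark with bars is the group mean with its SD (n = 6). TKA rat 2 has the lowest *Ccl2* of all rats, at 0.509 CPM, and the highest *Ackr3*, at 24.9 CPM.

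The comparison of sham with naive rats asked what anesthesia and a skin incision alone did to *Ccl2* in the ganglion. Sham rats had a 1.996-fold higher level, or 0.997 on the log2 scale (standard error 0.19, 95% interval 0.59 to 1.40). Each of the 6 sham rats exceeded each of the 6 naive rats, which 0.066% of the 15153 transcripts tested showed in this direction, and the exact permutation test of this transcript alone gave p = 0.00216 (two-sided), the smallest that 6 rats against 6 allow. By p-value *Ccl2* ranked 2 of 15153, which is a description, since it was chosen with results of these rats known. It was not called, since its adjusted p was 0.648 in edgeR's quasi-likelihood test. That test called 0 transcripts (0% of those tested), with 625 (4.12%) at an unadjusted p under 0.05, and voom and DESeq2 with shrunken fold-changes called 0 as well. DESeq2 without shrinkage called 4 (0.0264%), *Ccl2* among them (log2 fold-change 0.995, adjusted p = 0.00216). On counts simulated for this comparison with no change, DESeq2 without shrinkage made 3 calls by adjusted p alone, and edgeR 0. Shrunken, *Ccl2* had an adjusted p of 0.0035 in DESeq2 but a difference of 0.54 on the log2 scale, under the 1.5-fold threshold.

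In TKA against sham rats, the size and error of the difference in *Ccl2* depended on rat 2. Over all 12 rats the log2 difference was 0.67 (standard error 0.59, 95% interval -0.61 to 1.94, adjusted p = 0.745 in edgeR's quasi-likelihood test), and 4 of the 6 TKA rats exceeded every sham rat (two-sided exact permutation p = 0.998). The permutation test compares mean log2 CPM and not edgeR's fold-change. With all rats that mean was slightly lower in TKA (4.37) than in sham rats (4.45). Without rat 2 it was 0.92 (standard error 0.21, 95% interval 0.47 to 1.36), 4 of the 5 TKA rats exceeded every sham rat, and the exact permutation p was 0.00649. All 5 did so for 0.627% of transcripts, with *Ccl2* not among them. The adjusted p of 0.154 in edgeR's test was then still above the threshold. The interval without rat 2 lay above 0, while that with rat 2 held both a fall and a rise of more than 1.5-fold.

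Against naive rats, *Ccl2* was 3.16-fold higher in TKA rats, a log2 difference of 1.66 (standard error 0.59, 95% interval 0.39 to 2.93, adjusted p = 0.194 in edgeR's quasi-likelihood test). Of the TKA rats, 5 of 6 exceeded every naive rat and rat 2 was below them all (two-sided exact permutation p = 0.524). That permutation test compares mean log2 CPM, which was 4.37 in TKA and 3.50 in naive rats, and not edgeR's fold-change. All 6 TKA rats exceeded every naive rat for 1.27% of the 15170 transcripts tested. Without rat 2 the level was 3.79-fold higher, a log2 fold-change of 1.92 (standard error 0.16, 95% interval 1.57 to 2.27), and *Ccl2* was called with an adjusted p of 3.72e-05 in edgeR's test, ranking 2 of 15441 by p-value. In that fit 0.732% of transcripts were called, against 0.0857% with all 12 rats, where 17.2% had an unadjusted p under 0.05. All 5 TKA rats were then above all naive rats, as for 1.67% of transcripts. With sham and TKA rats as one operated group against naive rats, the log2 difference was 1.33 (standard error 0.46, adjusted p = 0.460 in edgeR's test), and without rat 2 it was 1.46 (standard error 0.17, adjusted p = 0.000303, called, with 0.0367% of transcripts called). These comparisons share the naive, sham, or TKA rats, so they do not support one another.

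*Ackr3* had about the same mean level in naive and sham rats and a higher one in TKA rats. In naive rats it ran from 5.56 to 16.3 CPM (median 9.48, mean 10.5 ± 4.04, SD, n = 6), with rats 5 and 6, both labelled female, at 14.4 and 16.3 CPM and the other 4 under 10 CPM. In sham rats it ran from 8.80 to 13.2 CPM (median 11.1, mean 10.98 ± 1.62, SD, n = 6), all of it within the naive range. In TKA rats it ran from 13.9 to 24.9 CPM (median 17.3, mean 18.3 ± 4.02, SD, n = 6), above all sham rats but overlapping with naive rats 5 and 6. Rat 2, with the lowest *Ccl2*, had the highest *Ackr3* of the 18 rats, on 489 counts, and rat 6 the next at 20.7 CPM. Without rat 2 the TKA mean was 16.98 ± 2.68 CPM (SD, n = 5). No group of counts fell below 116, so the precision of *Ackr3* was set by the spread between rats.

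The RefSeq promoter table (assembly GRCr8) held 1 entry for *Ackr3*. It is shown because it is the stretch just upstream of the gene followed here, the 250 bases before its start, chr9:98247104-98247353 on the plus strand, with a TATA-like stretch in capitals.
*Ackr3* promoter: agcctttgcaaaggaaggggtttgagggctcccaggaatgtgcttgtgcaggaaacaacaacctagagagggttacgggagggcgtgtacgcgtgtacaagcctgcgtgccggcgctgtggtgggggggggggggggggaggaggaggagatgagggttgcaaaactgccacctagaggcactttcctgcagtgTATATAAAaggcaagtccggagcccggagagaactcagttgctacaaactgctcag
The capitals hold TATATAA, which starts 56 bases before the gene's start and is found on either strand in 3.42% of 33469 promoters of this length, and TATAAA, which overlaps it and is found in 12.9%. Motifs of factors that act downstream of cytokines were searched on both strands. TGANTCA (AP-1, in 6.34% of promoters), GGNNTTTCC (core of the NF-kB motif, in 5.19%), TGACGTCA (CRE, in 1.59%), and CACGTG (E-box, in 5.59%) were not in this window. These are matches of letters only.

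In sham against naive rats, *Ackr3* differed by a log2 fold-change of 0.07 (standard error 0.23, 95% interval -0.41 to 0.55, adjusted p = 0.998 in edgeR's quasi-likelihood test), and none of the 6 sham rats lay above the highest naive rat (two-sided exact permutation p = 0.584). Both ends of this interval lay within a change of 1.5-fold. In TKA against sham rats, *Ackr3* was 1.68-fold higher, a log2 fold-change of 0.75 (standard error 0.17, 95% interval 0.38 to 1.12). Every TKA rat exceeded every sham rat, as for 0.444% of 15320 transcripts (two-sided exact permutation p = 0.00216, the smallest possible), and *Ackr3* ranked 33 of 15320 by p-value. The adjusted p was 0.325, so edgeR did not call it, and edgeR called 0 transcripts (0%) in this comparison, with 1355 (8.84%) at an unadjusted p under 0.05. DESeq2 without shrinkage called 62 transcripts (0.405%), *Ackr3* among them (0.74 on the log2 scale, adjusted p = 0.0202), and with shrinkage 56 (0.366%), again with *Ackr3* (0.67, adjusted p = 0.0216). Voom called 1 (0.00653%) and did not call *Ackr3* (adjusted p = 0.186). Without rat 2 the log2 difference was 0.62 (standard error 0.15, 95% interval 0.29 to 0.95, adjusted p = 0.221 in edgeR's test).

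In TKA against naive rats, *Ackr3* was 1.76-fold higher, a log2 fold-change of 0.81 (standard error 0.25, 95% interval 0.28 to 1.35, adjusted p = 0.165 in edgeR's quasi-likelihood test). Of the 6 TKA rats, 3 exceeded every naive rat (two-sided exact permutation p = 0.0152). DESeq2 called *Ackr3* without shrinkage (adjusted p = 0.0489, with 2.83% of transcripts called) but not with it (adjusted p = 0.0509, 2.26% called), and voom called it (adjusted p = 0.0495, 0.811% called). Without rat 2 it was 0.69 (standard error 0.24, adjusted p = 0.164 in edgeR's test). When the 6 TKA rats were set against the 12 naive and sham rats together, *Ackr3* was 1.72-fold higher and was called (log2 fold-change 0.78, standard error 0.19, adjusted p = 0.0336 in edgeR's quasi-likelihood test), as were 2.21% of the 16048 transcripts tested. That call was lost without TKA rat 2 (0.66, adjusted p = 0.0755, with 0.813% of transcripts called), without TKA rat 6 (0.74, adjusted p = 0.0896), and without naive rat 1, 3, or 4 or sham rat 6, and was kept in the other 12 of 18 fits with 1 rat left out. With rats 2 and 6 both left out, a choice made after seeing the data, *Ackr3* differed by 0.57 on the log2 scale (adjusted p = 0.255).

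**Figure D2:**
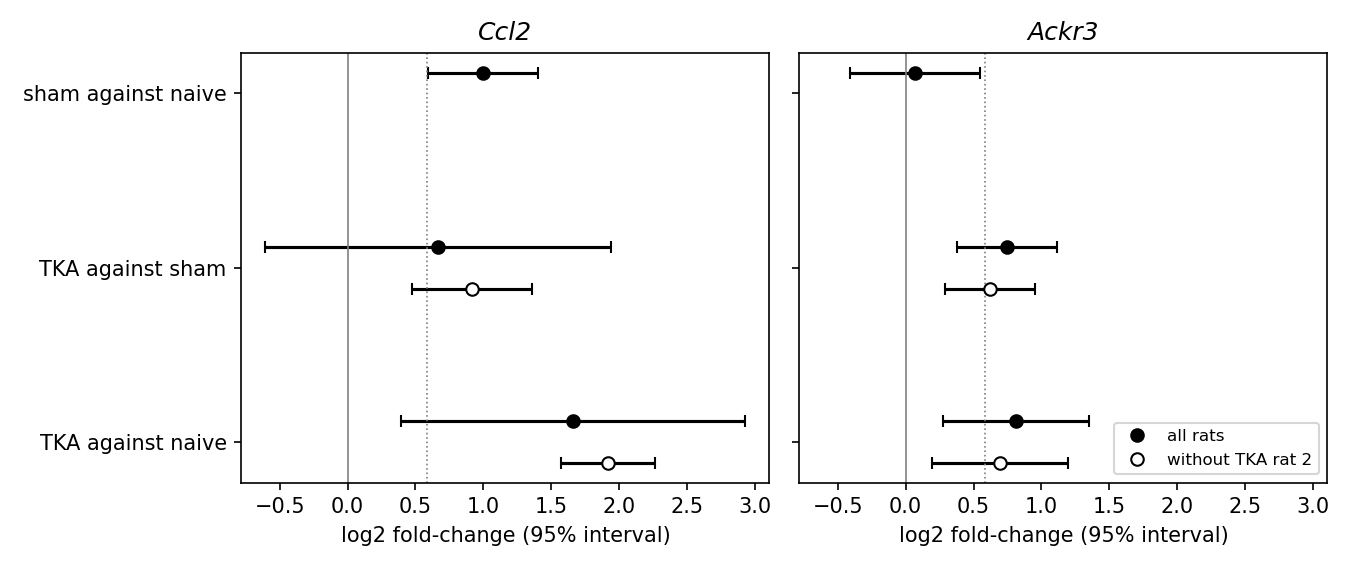
Log2 fold-change (horizontal axis) with its 95% interval for *Ccl2* on the left and *Ackr3* on the right in the 3 comparisons, with filled points for all rats and open points without TKA rat 2. The solid line is 0 and the dotted line a rise of 1.5-fold. For *Ccl2* the interval in TKA against naive rats narrows from 0.39 to 2.93 to 1.57 to 2.27 without rat 2, while for *Ackr3* it changes little.

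Whether *Ccl2* and *Ackr3* moved by different amounts was tested on the log2 ratio of the pair within each rat. The ratio is used only between groups, since the transcripts differ in length and the ratio in one rat does not say which is more abundant. In naive rats it was 0.18 ± 0.51 and in sham rats 0.99 ± 0.29 (SD, n = 6 each), a difference of 0.81 toward *Ccl2* (exact permutation test, two-sided, p = 0.0130, and 0.0390 adjusted over the 3 pairs of groups). Naive rat 2, at 1.152, was far above the other naive rats, which lay between -0.21 and 0.29, and only 1 of 6 sham rats was above it. In TKA rats the ratio was between 0.91 and 1.86 in 5 rats and -5.39 in rat 2. Over all rats TKA therefore differed from sham by -0.80 (exact permutation p = 0.931) and from naive by 0.01 (exact permutation p = 1). Without rat 2 these were 0.32 (exact permutation p = 0.160) and 1.13 (exact permutation p = 0.0108, and 0.0216 adjusted over the 2 pairs with TKA rats). By mean log2 ratio, the rise of *Ccl2* over naive rats was larger than that of *Ackr3* in these sham rats, and in the TKA rats only without rat 2. The pair was chosen with results of these rats known, so the p-values of the ratio are descriptions. With rats of the same number paired, the exact sign-flip p for sham against naive was 0.0625. A difference between the pair in TKA against sham rats was not shown.

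**Figure D3:**
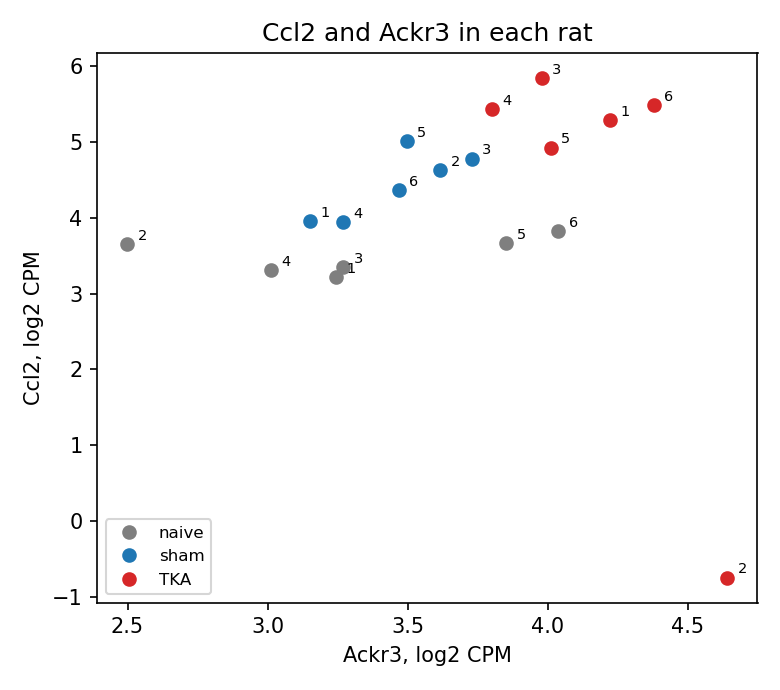
Log2 CPM of *Ackr3* (horizontal axis) against log2 CPM of *Ccl2* (vertical axis), 1 point for each of the 18 rats with its number, colored by group. Sham rats lie above the naive rats of like *Ackr3*, the TKA rats other than rat 2 lie at the upper right, and rat 2 lies alone at -0.75 for *Ccl2*.

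By labelled sex the means were close for *Ccl2* in naive rats (12.2 CPM in females and 10.6 in males) and in sham rats (22.7 and 22.5 CPM). In TKA rats they were 39.4 ± 7.92 CPM in females and 32.2 ± 28.96 CPM in males (SD, n = 3 each), with rat 2 among the males. *Ackr3* was at 12.9 ± 4.36 CPM in naive females and 8.18 ± 2.26 CPM in naive males (SD, n = 3 each), at 10.6 and 11.4 CPM in sham females and males, and at 16.9 and 19.7 CPM in TKA females and males. The effect of TKA against naive on *Ackr3* was larger in males than in females by 0.91 on the log2 scale (standard error 0.45, unadjusted p = 0.0664, adjusted p = 0.995 in edgeR's quasi-likelihood test of the interaction), and that of sham against naive by 0.75 (standard error 0.41, unadjusted p = 0.0861, adjusted p = 0.985). For *Ccl2* the corresponding differences were -0.07, 0.18, and, for TKA against sham, -0.28, each within its standard error. A difference between sexes was not shown for either transcript, and with 3 rats a sex, 1 of them in doubt, only a large one could be.

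Because whole ganglia were sequenced, fewer cells of a type and less RNA per cell cannot be told apart, and the makeup of each sample was measured beside the 2 transcripts. The 6 named sensory neuron transcripts of a list of 19 summed to 35778 to 47238 CPM in naive, 34627 to 44381 CPM in sham, and 17164 to 39965 CPM in TKA rats. Nearly all of the sum was neurofilament, with *Nefl*, *Nefm*, and *Nefh* at 15881, 16067, and 14703 CPM in naive rat 1. Of the 6 transcripts, 3 were higher and 3 lower in TKA against naive rats, and likewise in TKA against sham rats. TKA rat 2 had the lowest sum, and was the lowest of 18 rats in 5 of the 6 and the highest in 1. Its *Calca*, which encodes the sensory peptide CGRP, was at 68.9 CPM, where naive and sham rats had at least 426 and the other TKA rats at least 453. TKA rat 6 had the next lowest sum, at 21791 CPM. The 13 named transcripts of 16 for myelinating Schwann cells, the glia that wrap axons, summed to 7267 to 12474 CPM in naive and 8072 to 19155 CPM in sham rats, and to 98095 CPM in TKA rat 2, the highest in all 13, and 55506 CPM in rat 6. The 6 named muscle transcripts of 17 summed to at most 673 CPM in naive and sham rats and to 9744 CPM in TKA rat 2, the highest in all 6. TKA rats 3 and 6, at 1131 and 1205 CPM, also lay above all naive and sham rats. Without rat 2, 6 of the 6 were higher in TKA against naive rats and 5 in TKA against sham rats, with none called by edgeR. The 13 named macrophage transcripts of 18 summed to 149 to 290 CPM in naive, 105 to 446 CPM in sham, and 252 to 898 CPM in TKA rats, with rat 2 the highest in 12 of 13. None of these markers, each read from 1 transcript, was at 0 in rat 2. Another *Calca* transcript was at 0 in rat 2 and at 3.70 to 6.88 CPM in the other 5 TKA rats. Neurofilament and myelin transcripts, which mark ganglia and their nerve, were present in every rat, and no neutrophil marker of the 8 listed was among the named transcripts.

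**Figure D4:**
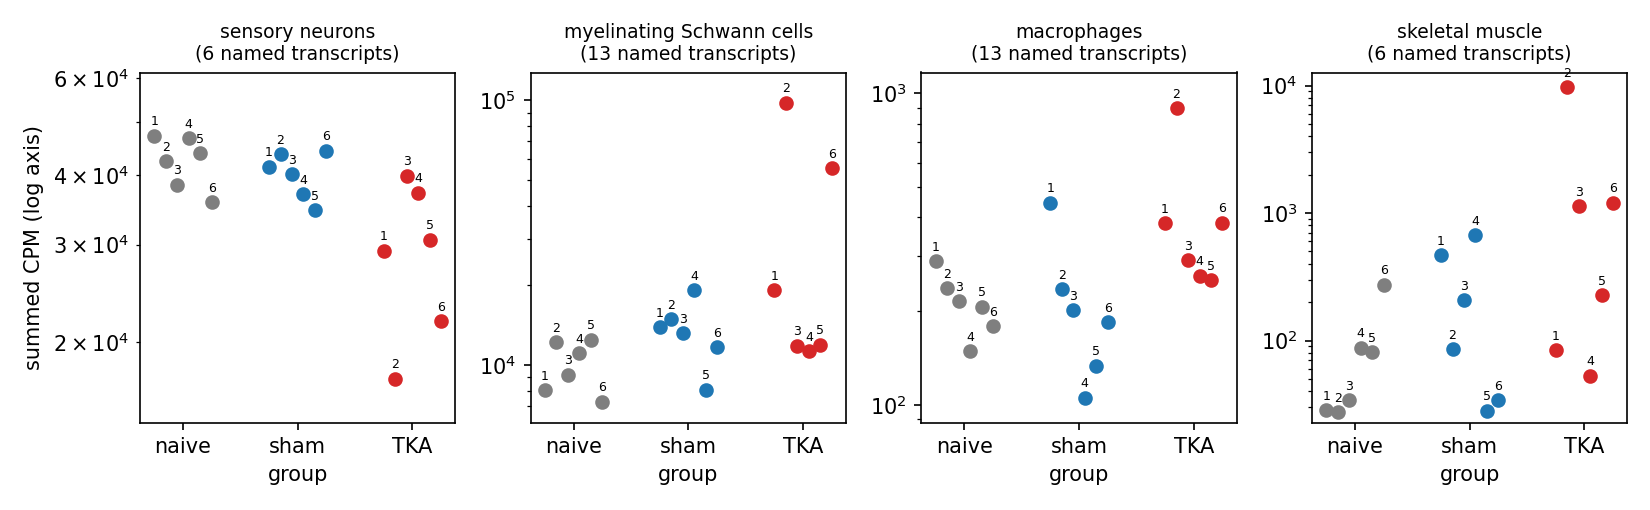
Summed CPM on a log axis of the named transcripts of 4 cell type lists in each rat, by group, with the rat's number. TKA rat 2 and then TKA rat 6 have the lowest sensory neuron sums (17164 and 21791 CPM) and the highest Schwann cell sums (98095 and 55506 CPM), and rat 2 the highest macrophage and muscle sums. The sensory neuron sum is nearly all neurofilament.

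TKA rat 2, with the lowest neuron sum and the highest of the other sums, had the lowest *Ccl2* and the highest *Ackr3* of the 18 rats. Rat 6 also had a low neuron sum, nearly all neurofilament, and a high Schwann cell sum. Its *Calca* was at 453 CPM, where rat 2 had 68.9 CPM, and its *Ccl2*, at 44.7 CPM, was the second highest of all rats. With the mean log2 level of 3 neurofilament transcripts as a covariate, the log2 fold-change of *Ackr3* was 0.41 in place of 0.75 in TKA against sham rats, 0.34 in place of 0.81 in TKA against naive rats, and 0.37 in place of 0.78 in TKA against all other rats (adjusted p = 0.892 in edgeR's quasi-likelihood test, no longer called). That of *Ccl2* was 1.27 in place of 0.67 in TKA against sham and 2.37 in place of 1.66 in TKA against naive rats (adjusted p = 0.920 and 0.358 in edgeR's test). In sham against naive rats it was 0.92 in place of 0.997. The neurofilament level is itself different between the groups, and the part of cell makeup in the levels of *Ccl2* and *Ackr3* was not tested.

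Across the 18 rats, the 5 named transcripts with the level most like that of *Ccl2*, by Spearman rho of log2 CPM among the 3241 named of 16047 others, were *Alkal2* (rho 0.92), *Jun* (0.90), *Vgf* (0.89), *Flrt3* (0.89), and *Tnfrsf1a* (0.86). *Alkal2* encodes a ligand of the receptor kinase ALK, *Jun* a subunit of the transcription factor AP-1, *Vgf* a neuropeptide precursor, and *Tnfrsf1a* a receptor for tumor necrosis factor. *Alkal2* ranked first of all transcripts, at means of 1.79, 9.74, and 31.0 CPM in naive, sham, and TKA rats and at 0 in TKA rat 2. *Vgf* was at 30.1, 52.1, and 104.1 CPM and *Jun* at 160, 222, and 283 CPM, each with TKA rat 2 the lowest TKA rat. Among the lowest rho values with *Ccl2* were those of *Ankrd35* (-0.88), *Zfp423* (-0.81), *Kndc1* (-0.75), and *Faim2* (-0.75). Without rat 2, 4 of the 5 most alike were the same and *Socs3* took the place of *Flrt3*. Without rat 2, edgeR's test called *Vgf* (log2 fold-change 1.97, adjusted p = 4.15e-06) and *Alkal2* (4.39, adjusted p = 3.76e-05) in TKA against naive rats, where 0.732% of all transcripts were called. Both were picked for their likeness to *Ccl2* in these same rats, so these calls are no separate support.

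The named transcripts most like *Ackr3* were *Mex3c* (rho 0.84), *Ppp4r2* (0.84), *Cyp2j10* (0.82), *Dynlt1* (0.81), and *Nid2* (0.81), and those least like it *Nalf2* (-0.91), *Prkaca* (-0.88), *Agpat3* (-0.86), *Impa2* (-0.86), and *Piwil2* (-0.85). *Nid2* encodes a basement membrane protein and *Prkaca* the catalytic subunit of protein kinase A. Only 2 of the 5 most like *Ackr3* were the same without rat 2. *Ccl2* and *Ackr3* had a rho of 0.42 with each other over 18 rats and of 0.68 over 17 rats without rat 2. All of these values are descriptions over rats that share their groups, and any transcript that differs between the groups in the same order has a high rho.

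**Figure D5:**
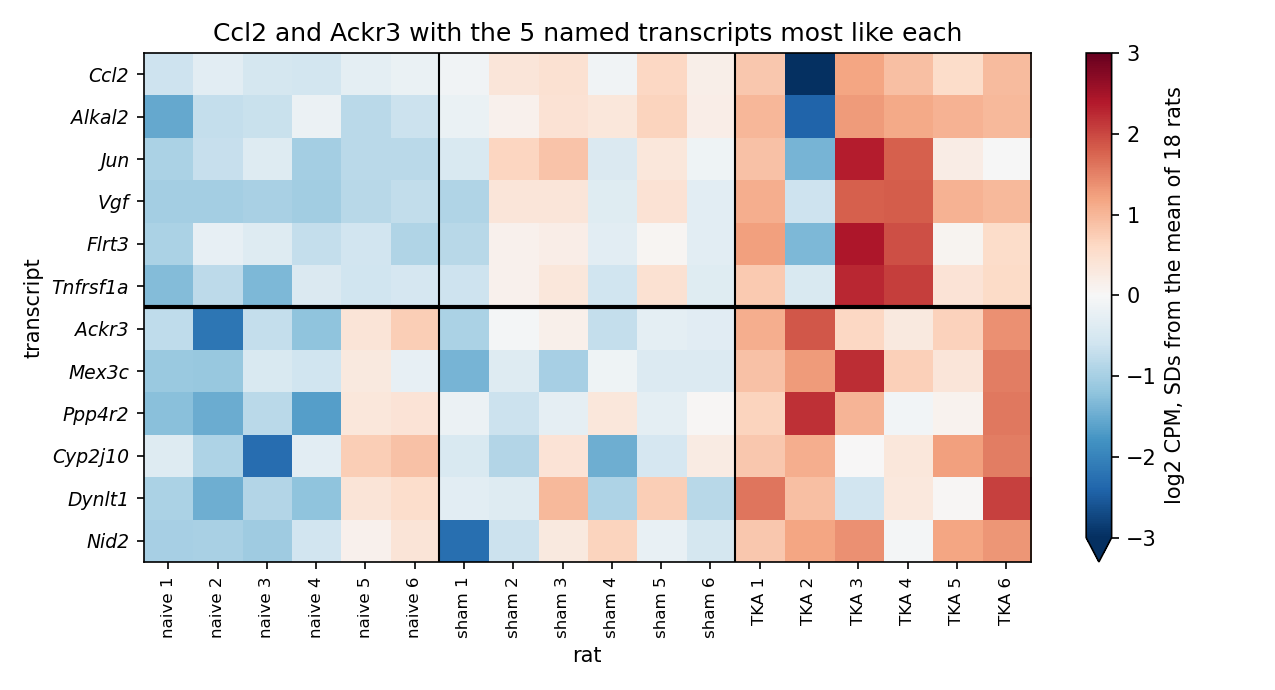
Log2 CPM of *Ccl2* and *Ackr3* and of the 5 named transcripts most like each (rows) in the 18 rats (columns), as SDs from the row's mean, red for above and blue for below. The color scale ends at 3 SDs, and TKA rat 2 is below the mean for the *Ccl2* rows, with *Ccl2* at -3.31 SDs, and above it for the *Ackr3* rows.

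The other members of both pathways could be read only in part, because names were at hand for 3837 transcripts, taken from the upper part of tables sorted by p-value in these same rats. Counts over named members therefore lean toward transcripts that differ. *Ccr2*, the receptor of CCL2, and *Cxcl12*, a ligand of ACKR3, were not analysed here. Of 36 chemokine ligands, 4 were named and tested. *Ccl7*, which shares CCR2 with CCL2, was at 1.44 ± 0.75 CPM in naive, 1.60 ± 0.67 CPM in sham, and 3.44 ± 1.86 CPM in TKA rats (SD, n = 6 each), with a log2 fold-change of 1.11 in TKA against sham rats (adjusted p = 0.533 in edgeR's quasi-likelihood test). In TKA rat 2 *Ccl7* was at 3.51 CPM, the third highest of the 6 TKA rats. *Cxcl13*, which draws B cells, was in rat 2 at 0.204 CPM, the lowest of the TKA rats. *Cxcl13* and *Cxcl17* were each at a mean of 2.12 CPM or less in every group. With all rats edgeR called none of the 4 ligands in any of the 3 comparisons, while *Ccl2* was called by DESeq2 without shrinkage in sham against naive rats (adjusted p = 0.00216) and by voom in TKA against naive rats (log2 fold-change 1.83, adjusted p = 0.0274). Without rat 2 edgeR called *Ccl2* alone of the 4, in TKA against naive rats.

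Of 23 chemokine receptors, 5 were named and 4 tested, *Ackr3* among them, and edgeR called none with or without rat 2. DESeq2 called *Ackr3* in TKA against sham rats (adjusted p = 0.0202 without shrinkage), and DESeq2 without shrinkage and voom called it in TKA against naive rats. *Cxcr4*, the G protein-coupled receptor of CXCL12, was at 1.17, 1.43, and 0.614 CPM in naive, sham, and TKA rats (TKA against sham -1.21, adjusted p = 0.609 in edgeR's quasi-likelihood test), so its mean and that of *Ackr3* differed from sham in opposite directions without passing the test. *Ccr10* was at 5.65, 5.27, and 3.43 CPM and *Ccrl2*, another atypical receptor, at 0.907, 0.306, and 1.55 CPM. The median log2 fold-change of the 4 tested receptors was 0.07 in TKA against sham rats, where that over all transcripts tested was 0.01.

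Of 8 opioid peptides and receptors, 3 were named and 2 tested. *Oprd1*, the delta opioid receptor, was at 5.63 ± 1.43 CPM in naive, 5.79 ± 1.249 CPM in sham, and 2.94 ± 1.05 CPM in TKA rats (SD, n = 6 each), with a log2 fold-change of -0.97 in TKA against sham rats (adjusted p = 0.469 in edgeR's quasi-likelihood test). *Oprl1*, the nociceptin receptor, was at 38.5, 38.3, and 26.1 CPM (-0.55, adjusted p = 0.510). Neither was called by edgeR. No peptide precursor of this list, whose product ACKR3 could bind, was named. Of 10 other ligands and trafficking partners of ACKR3, 4 were named and edgeR called none. *Adm*, the adrenomedullin precursor, was at 3.33, 2.66, and 4.71 CPM, *Arrb1*, a beta-arrestin, at 76.3, 68.5, and 78.2 CPM, the kinase *Grk5* at 28.2, 25.3, and 27.9 CPM, and *Ramp1*, a subunit of the CGRP receptor, at 4.07, 5.07, and 12.1 CPM, with TKA rat 2 at 32.5 CPM.

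Of 34 genes of cytokine signaling that acts on chemokine genes, 20 were named and 19 tested. In TKA against naive rats 18 of the 19 had a log2 fold-change above 0, with a median of 0.99 where that over all transcripts was 0.02, and 3 were called by edgeR, where 0.0857% of all transcripts were. *Zfp36*, which destabilizes cytokine mRNAs, rose by 1.48 (adjusted p = 0.000392), *Cebpd*, a transcription factor of the acute phase, by 1.47 (adjusted p = 0.00185), and *Il1r1*, the receptor for interleukin-1, by 1.58 (adjusted p = 0.0197, all from edgeR's quasi-likelihood test). Without rat 2, 10 of the 19 were called, all higher, where 0.732% of all transcripts were, among them *Tnfrsf1a*, *Nfkbia*, *Jun*, *Fos*, *Socs3*, and *Myd88*. In TKA against sham rats the median was 0.97 and edgeR called none, and in sham against naive rats the median was 0.26, with 15 of 19 above 0 and none called by edgeR. The list holds receptors, transcription factors, and inhibitors of this signaling. Its named members come from tables sorted by p-value in these same rats, so they lean toward transcripts that differ. Their medians and calls beside those of all transcripts are therefore no test of the list.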

How the data were processed

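Per the labels and the methods, the authors aligned paired-end reads (150 bp) with HISAT2 to rn6, counted them per Ensembl transcript with featureCounts, and used DESeq2 for testing. The deposited values are these raw counts, not normalized. Tool versions, the annotation release, and the strand and overlap settings are not given in the sources used here, so reads shared by isoforms or overlapping genes can be split or lost. The count table held 41078 transcripts and no names. Names came from the identifier and name columns of the paper's supplementary tables, shortened and sorted by p-value, which named 3837 transcripts. The authors' fold-changes and p-values there were not used. No coordinates are given on rn6, and the *Ackr3* promoter came from RefSeq, matched by symbol.

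Here, the 12 rats of a comparison were fitted by themselves in edgeR 4.0.16, run in R 4.3.3 (filterByExpr, TMM, quasi-likelihood F test, Benjamini-Hochberg adjustment over all transcripts tested). Calls used the thresholds of the study, an adjusted p under 0.05 together with a 1.5-fold change or more. Log2 CPM used a prior count of 2. Single transcripts were tested by exact permutation of the difference in mean log2 CPM, and the ratio by that in mean log2 ratio. All 924 splits of 12 rats, or all splits of 11, were used. On simulated sham and naive counts of 15153 transcripts, edgeR recovered 64 of 100 changed by 2-fold and 76 of 100 changed by 4-fold, with 5 false calls. DESeq2 recovered 71 and 78 with 26 false calls without a prior, and 70 and 74 with 21 false calls with it. Voom recovered 64 and 70 with 5 false calls. With no change simulated, DESeq2 made 3 calls with or without a prior, and edgeR and voom made 0. These calls used the adjusted p alone.

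The members, lists, tests, and alternatives were chosen with earlier results of these data known. Genes named are *Ccl2*, *Ackr3*, listed genes of their pathways and of cell types, and the 5 named transcripts with the highest and the lowest Spearman rho with each. One transcript that this rule names is not reported here. Where a symbol had several named transcripts, the transcript of highest mean count stood for it. No libraries were alike within counting noise (chi-square per degree of freedom at least 10.6 over 153 pairs). The alternatives were voom with quality weights (limma 3.58.1), DESeq2 1.42.0 without and with a prior that shrinks fold-changes, RLE size factors, no filter, a robust fit, a filter at a mean of 50 counts, sex or the neurofilament level as a covariate, the rat number as a block, all 3 groups in one fit, and each rat left out. Leaving out TKA rats 2 and 6 together was added after the data were seen.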

Additional observations from a re-analysis of the deposited data

Results flagged for a closer look

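A test for a rat far from the rest of its group was run on the log2 CPM of *Ccl2* and of *Ackr3* and on their log2 ratio in each group of rats, 9 sets of 6 values in all. It picked out a rat in 3 of the 9, and chance alone would pick out about 0.45. *Ccl2* in TKA rat 2 was at -0.75 log2 CPM, with the next TKA rat at 4.92. It lay 3.96 log2 units below the next of the 18 rats, and 159 of 16048 transcripts (0.991%) had TKA rat 2 at least as far below. The log2 ratio of *Ccl2* to *Ackr3* in the same rat was -5.39, with the next TKA rat at 0.91. This ratio holds the same *Ccl2* value and is no separate observation. The ratio in naive rat 2 was 1.152, with the next naive rat at 0.29, and came with the lowest *Ackr3* of the 18 rats, at 5.56 CPM. No group of *Ackr3* levels had a rat that stood apart in this way.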

How the results depend on the processing

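In edgeR's main setting the log2 fold-change of *Ccl2* was above 0 in each of the 3 comparisons, and it stayed so under every alternative fit and with any 1 rat left out. That of *Ackr3* did so in both comparisons with TKA rats. The mean log2 CPM of *Ccl2*, which the permutation test compares, went the other way in TKA against sham rats. It was 4.37 in TKA and 4.45 in sham rats, with TKA rat 2 at -0.75. Calls depended on the tool and on single rats, and the cause was not tested beyond the values given in the report. DESeq2 without a prior called *Ccl2* in sham against naive rats (log2 fold-change 0.995, adjusted p = 0.00216) and *Ackr3* in TKA against sham (0.74) and against naive rats (0.81, adjusted p = 0.0489), and DESeq2 with a prior called *Ackr3* in TKA against sham rats (0.67). Voom called both in TKA against naive rats (*Ccl2* 1.83, adjusted p = 0.0274, and *Ackr3* 0.88, adjusted p = 0.0495). DESeq2 without a prior called 4, 62, and 429 transcripts in sham against naive, TKA against sham, and TKA against naive rats, DESeq2 with a prior called 56 and 343 in the comparisons with TKA rats, and voom 1 and 123, where edgeR called 0, 0, and 13. One fit of all 3 groups called 11 and 116 in those comparisons, and the neurofilament covariate 39 in TKA against naive rats, where it also took *Ackr3* in TKA against all other rats to 0.37 (not called).

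With 1 rat left out, the log2 fold-change of *Ccl2* ranged from 0.86 to 1.08 in sham against naive, from 0.48 to 0.92 in TKA against sham, from 1.48 to 1.92 in TKA against naive, and from 1.23 to 1.46 in operated against naive rats, the highest values with TKA rats being those without rat 2. That of *Ackr3* ranged from -0.058 (without naive rat 2) to 0.24 in sham against naive, from 0.62 to 0.82 in TKA against sham, from 0.68 to 0.99 in TKA against naive, and from 0.66 to 0.86 in TKA against all other rats. The difference in log2 ratio ranged from -1.13 to 0.32 (without rat 2) in TKA against sham, and from -0.32 to 1.13 in TKA against naive rats. Calls in TKA against naive rats ranged from 3 to 113. Without TKA rats 2 and 6, *Ccl2* was called in TKA against naive (1.91, with 105 transcripts called) and operated against naive rats (1.44), and *Ackr3* in TKA against all other rats was not (0.57).

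The ratio of TKA to sham rats was 0.13 as a difference of medians, and that of TKA to naive rats -0.011 with a prior count of 0.5. With TKA rat 4 entered as male, the sex difference of *Ackr3* in TKA against sham rats was -0.10 and that of *Ccl2* in TKA against naive rats 0.11, with voom 0.25. By Pearson's r, 1 of the 5 transcripts most like *Ccl2* and 1 of those most like *Ackr3* were the same, and without rat 2, 2 of those most like *Ackr3*.

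Rats of the same number in different groups share the labelled sex, and nothing in the labels ties them otherwise. The correlation of their deviations lay between -0.05 and 0.22, with at most 1 of 6 pairs over 0.1 and 1 of 6 rats correlating best with its own number in each comparison. With the number as a replicate block, *Ackr3* in TKA against all other rats was at 0.79 (adjusted p = 0.0700, not called), the ratio of sham to naive rats at 0.81 (exact sign-flip p = 0.0625), and 1 transcript was called in TKA against naive rats. The block changed no other call.

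On counts simulated for sham against naive rats, edgeR called 64 of 100 changes of 2-fold. Changes near 1.5-fold and comparisons with TKA rats were not simulated. The low counts of most other chemokine and receptor transcripts limit what can be said of them.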

Other observations

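Other cell types of the ganglion were measured beside *Ccl2* and *Ackr3*. The 6 named fibroblast transcripts of a list of 10 summed to 306 to 571 CPM in naive, 266 to 610 CPM in sham, and 563 to 1342 CPM in TKA rats. The highest sums were those of TKA rats 2 and 6, at 1342 and 1162 CPM. All 6 transcripts had a log2 fold-change above 0 in TKA against naive rats, with a median of 1.03 where that over all transcripts tested was 0.02, and edgeR called 1, where 0.0857% of all transcripts were called. Names came from tables sorted by p-value in these same rats, so named members lean toward transcripts that differ. These values are therefore no test of the list. The 5 named satellite glia transcripts of 9, from the cells that wrap neuron bodies, summed to 1811 to 2198 CPM in naive, 1994 to 2423 CPM in sham, and 2292 to 5493 CPM in TKA rats, and edgeR called 0 of the 5 with all rats. Of the 5, 3 were higher and 2 lower in TKA against naive rats, with and without rat 2. Without TKA rat 2, *Gfap*, a filament protein of glia, was called in TKA against naive rats (adjusted p = 0.00143 in edgeR's quasi-likelihood test, with 0.732% of all transcripts called). The 3 named endothelial transcripts of 10 summed to 67.0 to 99.5 CPM in naive, 71.4 to 124 CPM in sham, and 87.5 to 462 CPM in TKA rats, and edgeR called none. In each of these 3 lists TKA rat 2 had the highest sum of the 18 rats.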
